A study of Rattus norvegicus with 8 samples.

Results

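Protein folding in the endoplasmic reticulum (ER) was followed in rat spinal cord through 10 genes: the disulfide isomerases Pdia4, Pdia3 and Pdia6, the chaperones Hspa5 and Hsp90b1, the lectin chaperones Calr and Canx, and the stress transcription factors Xbp1, Atf4 and Ddit3. Pdia4 was selected on the contrast between stressed and control rats, where it had a high rise, and the other 9 genes were chosen by their function, with earlier results of these data known, so they are not independent of it. The stress contrast of Pdia4 is therefore given as a description, with no test. Every member had 1 probe, and all 10 probes were well above background on all 8 arrays, so that 10 of the 13393 gene symbols with a tested probe are described.

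RNA of the lumbar L6S1 segments was measured in male Wistar rats of 12 weeks on Agilent 1-colour arrays, with 1 array for each rat. The 4 stressed rats were put on a small platform surrounded by water (water avoidance stress, WA) on 10 days, and their tissue was collected 24 h after the last session. The 4 control rats were handled in place of the stress, and in all rats the meninges were removed from the cord. On the single slide, every stressed rat was in row 1 and every control rat in row 2, so the row and the group cannot be told apart. Rats of the same replicate number were in the same slide column. Values are log2 signals minus the 75th percentile of their array, so a value below 0 is a signal under that percentile and not an absent one. Differences are stressed minus control.

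Control replicate 2 stood apart within its group. Over all 23678 tested probes, a principal component that held 54.1% of the variance put it at 46.1, beyond the highest stressed rat (34.5), while control replicates 1, 3 and 4 lay between -56.3 and -39.4. The difference between upstream and downstream probes of a transcript (5′ minus 3′, log2) was 0.22 for control replicate 2. Stressed rats had values from 0.092 to 0.17, and control replicates 1, 3 and 4 had values from -0.30 to -0.18. Whether this array carries the right label was not tested. It is kept as a control, as labelled, and values without it stand beside the differences of the members and named ER genes and beside the counts of genes that passed. Its signal was nearer the stressed mean than the mean of the other control rats at 68% of tested probes, at 6 of the 10 members and at 79 of the 106 other ER genes tested.

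Proteins that enter the ER are folded by chaperones of the HSP70 and HSP90 families, are given their disulfide bonds by isomerases of the PDI family, and, when they carry sugar chains, are held by calnexin and calreticulin until folded. When unfolded protein builds up, the sensors IRE1 (Ern1), PERK (Eif2ak3) and ATF6 (Atf6) start the unfolded protein response, in which Xbp1, Atf4 and Ddit3 (CHOP) are made or activated and chaperone genes are transcribed. Xbp1 is controlled by splicing, Atf4 largely by translation and Atf6 by cleavage, so that a probe for the mRNA reads only part of this response. In the spinal cord, neurons with long axons and myelin-forming oligodendrocytes both carry a large load of secretory and membrane proteins.

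Pdia4, an isomerase also known as ERp72 that holds several thioredoxin-like domains, was measured by 1 probe. The probes of Pdia3, Calr and Canx, the members with the next largest differences, are shown in the direction of the mRNA, in lower case with no part marked.
Pdia3: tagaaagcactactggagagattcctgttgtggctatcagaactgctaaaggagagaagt
Calr: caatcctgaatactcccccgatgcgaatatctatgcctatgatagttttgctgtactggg
Canx: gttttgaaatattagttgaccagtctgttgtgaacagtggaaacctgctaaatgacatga
The Pdia3 probe lies at chr3:108236022-108236081, the Calr probe at chr19:24967507-24967566 and the Canx probe at chr10:35862130-35862189 of the rn4 assembly. Exon and UTR annotation was not analysed here. Their GC content was between 36.7% (Canx) and 45% (Calr). All 10 transcript identifiers in the files matched the same gene symbol in RefSeq (GRCr8).

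In stressed rats the Pdia4 signal was -1.63, -1.38, -1.67 and -1.22 (replicates 1 to 4). In control rats it was -2.56, -2.56, -2.73 and -3.22. The lowest stressed rat lay 0.89 above the highest control rat, and control replicate 2 had the signal of the other control rats. The means were -1.48 ± 0.21 (SD, n = 4) in stressed and -2.77 ± 0.31 (SD, n = 4) in control rats, a log2 difference of 1.29 (standard error 0.17), or 2.45-fold. Without control replicate 2 the difference was 1.36 (standard error 0.18). It was 1.24 when the 5′ minus 3′ value entered the fit. Of all tested probes, 226 had a larger rise.

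**Figure D1:**
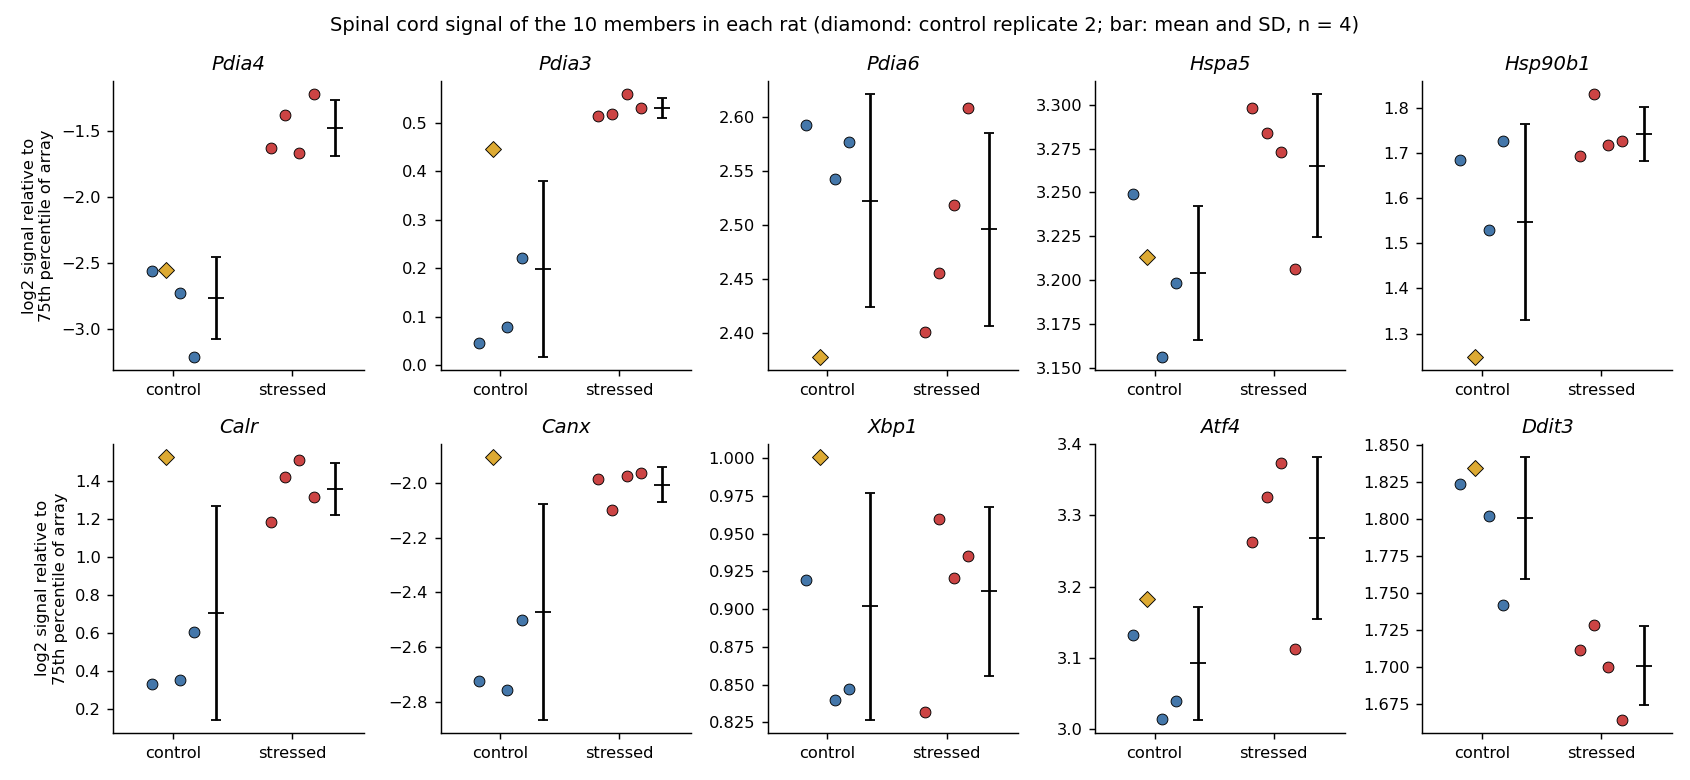
Signal of the 10 members in each rat, as log2 over the 75th percentile of that array (y axis, its range set for each gene), in control and stressed rats (x axis). Points are rats, the diamond is control replicate 2, and bars are the mean and SD of 4 rats; for Pdia4 the diamond sits with the other control rats at -2.56, and for Calr and Canx it sits at 1.53 and -1.91, above all 4 stressed rats.

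Among the other isomerases, Pdia3 (ERp57), which works with calnexin and calreticulin on glycoproteins, had signals of 0.51, 0.52, 0.56 and 0.53 in stressed rats and of 0.05, 0.45, 0.08 and 0.22 in control rats. The stressed rats lay close together and above all control rats, of which replicate 2 came nearest. The log2 difference was 0.33 (standard error 0.10, 95% interval 0.11 to 0.56), or 1.26-fold, and did not pass the test (limma, adjusted p = 0.139). Without control replicate 2 it was 0.42 (standard error 0.06, adjusted p = 0.0034 from limma). As the RNA came from whole tissue, a change in the number of cells of a type and a change in the RNA per cell cannot be told apart, so fewer cells and less RNA per cell, or more of either, would look alike. Pdia6 (P5), an isomerase that binds Hspa5, had stressed rats between 2.40 and 2.61 and control rats between 2.38 and 2.59. The groups overlapped fully, with a difference of -0.03 (standard error 0.08, 95% interval -0.21 to 0.16, adjusted p = 0.864). It was -0.075 without control replicate 2 (adjusted p = 0.419) and -0.14 after median scaling (adjusted p = 0.488), and the sign turned with normexp background correction, with the 5′ minus 3′ covariate and without stress replicate 1.

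Calreticulin (Calr), the soluble lectin chaperone and calcium store of the ER, had signals of 1.19, 1.42, 1.51 and 1.32 in stressed rats. Control rats were at 0.33, 1.53, 0.36 and 0.61. Control replicate 2 was higher than every stressed rat and the other 3 control rats were lower than all of them. Over all arrays the difference was 0.65 (standard error 0.26, 95% interval 0.055 to 1.25), or 1.57-fold, and did not pass (adjusted p = 0.220). Without control replicate 2 it was 0.93 (standard error 0.10), or 1.90-fold (adjusted p = 0.0015).
Calnexin (Canx), the membrane-bound lectin chaperone, likewise had control replicate 2 above and the other 3 control rats below every stressed rat. Its signals were -1.99, -2.10, -1.98 and -1.96 in stressed rats and -2.72, -1.91, -2.76 and -2.50 in control rats. Its difference was 0.46 (standard error 0.18, 95% interval 0.042 to 0.89, adjusted p = 0.218) over all arrays and 0.65 (standard error 0.08, adjusted p = 0.0019) without control replicate 2. With the 5′ minus 3′ covariate the difference of both lectin chaperones was near 0, at 0.02 for Calr (adjusted p = 0.948) and 0.02 for Canx (adjusted p = 0.893), and that of Pdia3 was 0.13 (adjusted p = 0.277). The part of this measure in the 3 genes was not tested.

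The ER HSP70, Hspa5 (BiP), the chaperone that also holds the sensors inactive, lay between 3.21 and 3.30 in stressed rats and between 3.16 and 3.25 in control rats. Its difference of 0.06 (standard error 0.06, 95% interval -0.08 to 0.20) did not pass (adjusted p = 0.582), nor did that of 0.064 without control replicate 2 (adjusted p = 0.404). Median scaling turned its sign, to -0.05. The ER HSP90, Hsp90b1 (GRP94), had stressed rats between 1.69 and 1.83 and control rats at 1.68, 1.25, 1.53 and 1.73. Control replicate 2 was the lowest rat, away from the stressed rats. The difference was 0.19 (standard error 0.11, 95% interval -0.066 to 0.46, adjusted p = 0.354) over all arrays, 0.09 (adjusted p = 0.337) without control replicate 2 and 0.40 (adjusted p = 0.0821) with the 5′ minus 3′ covariate, the one setting in which it passed. After median scaling it was 0.080 (adjusted p = 0.771).

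None of the 3 transcription factors passed over all arrays with equal weights. Atf4, the factor translated after PERK acts, had a difference of 0.18 (standard error 0.08, 95% interval -0.014 to 0.37, adjusted p = 0.272), with stressed rats from 3.11 to 3.37 and control rats from 3.01 to 3.18, and without control replicate 2 of 0.21 (adjusted p = 0.0847). It was 0.061 after median scaling (adjusted p = 0.661) and 0.097 with the 5′ minus 3′ covariate (adjusted p = 0.585), and with array weights it was 0.23 and passed (adjusted p = 0.0215). Xbp1, the factor spliced by IRE1, had the same level in both groups within their spread, 0.91 ± 0.06 (SD, n = 4) in stressed and 0.90 ± 0.08 (SD, n = 4) in control rats. Its difference was 0.0098 (95% interval -0.15 to 0.17, adjusted p = 0.946), with no stable sign: it was -0.11 after median scaling and 0.043 without control replicate 2 (adjusted p = 0.602). Ddit3, a factor of the late and death-promoting response, was at 1.71, 1.73, 1.70 and 1.66 in stressed rats and at 1.82, 1.84, 1.80 and 1.74 in control rats. Every stressed rat was lower than any control rat, with a difference of -0.10 on the log2 scale (standard error 0.06, 95% interval -0.24 to 0.039), that did not pass (adjusted p = 0.370). The difference was -0.088 with control replicate 2 left out (adjusted p = 0.230) and -0.21 after median scaling (adjusted p = 0.167).

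Pdia4 was chosen on this contrast and is left out of the counts that follow. Of the other 9 members, 0 passed an adjusted p of 0.1 in limma over all arrays, where 3.74% of all tested probes passed, 2.77% higher and 0.971% lower. An unadjusted p below 0.05 was found for 3 of the 9 (Pdia3, Calr and Canx) and for 4810 of the 23678 tested probes (20.3%). In 2 of the 9, Pdia3 and Ddit3, the groups did not overlap, and at 12.1% of tested probes they did not. The median difference was 0.18 over the 9 members and 0.06 over all tested probes. It was above 0 in 7 of the 9 and at 59.6% of tested probes. After median scaling, which moved the median of all tested probes to -0.05, Hspa5 (-0.054) and Xbp1 (-0.11) also fell below 0. Without control replicate 2, 4 of the 9 passed, all of them higher (Pdia3, Calr, Canx and Atf4), where 42.4% of all tested probes passed, 30.5% higher and 11.9% lower. Array weights, of which control replicate 2 had the lowest (0.107), let these 4 genes pass over all arrays, and Pdia3 also passed with trend and robust estimation (adjusted p = 0.0943). Without any one of the other arrays the count of probes fell from 885 to between 0 and 72.

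**Figure D2:**
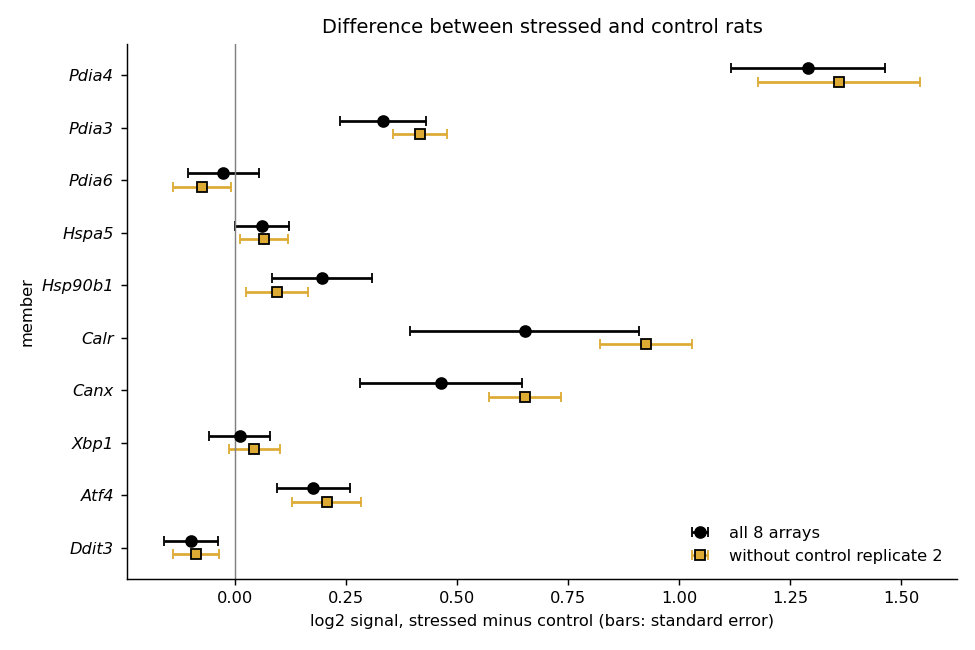
Difference between stressed and control rats for each member (x axis, log2 signal, stressed minus control; bars are standard errors) over all 8 arrays (circles) and without control replicate 2 (squares). Pdia4 lies at 1.29 and 1.36; Calr moves from 0.65 to 0.93 and Canx from 0.46 to 0.65, while Hspa5, Pdia6, Xbp1 and Ddit3 stay within 0.10 of 0 in both.

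The members differed in how they varied from rat to rat. After the group means were removed, Pdia3 correlated with Calr (Pearson r = 0.96) and with Canx (r = 0.97), and Calr with Canx (r = 0.95), over the 8 arrays, which share a slide and a scan. These values rest partly on control replicate 2. Over the 7 arrays without it they were 0.78, 0.86 and 0.48. With Pdia4 the values over 8 arrays were 0.02 (Pdia3), 0.19 (Calr) and 0.14 (Canx), and over 7 arrays they were -0.81, -0.55 and -0.69, so this relation too turns on control replicate 2. Its nearest member was Xbp1, with r = 0.65 over 8 arrays and 0.58 over 7. The 5 gene symbols most like Pdia4 among 13393 were Cul2 (r = 0.97), Mcts2 (0.96), Hbz (0.96), Pml (0.96) and Lat (0.94). Over the 7 arrays without control replicate 2 their r lay between 0.93 and 0.98. They were picked as the highest of 13393 on these same arrays, so these values are only a description. With the group means kept, r over the 8 arrays ran from -0.60 (Mcts2) to 0.70 (Hbz). The differences of these 5 genes between the groups were between -0.26 and 0.26, and none passed in limma (adjusted p from 0.289 to 0.856).

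RefSeq promoters (GRCr8, 250 bases before to 50 after the start) were at hand for 8 members, all but Pdia3 and Pdia6. They were searched on both strands for the ER stress element, CCAAT and CCACG with 9 bases between them, through which ATF6 and NF-Y act on chaperone genes. It was found in 5 of the 8, and in 0.0657% of the 33469 promoters of the table. Pdia4, Atf4 and Ddit3 held no match in this window. The matches in Hspa5, Hsp90b1, Xbp1 and Calr are shown so that these promoters can be read side by side, with the element in capitals and 10 bases on either side, read along the gene. In Calr and the second Hsp90b1 site the element is on the other strand.
Hspa5: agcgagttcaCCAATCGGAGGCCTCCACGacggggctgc
Hsp90b1: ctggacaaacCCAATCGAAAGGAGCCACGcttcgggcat
Hsp90b1: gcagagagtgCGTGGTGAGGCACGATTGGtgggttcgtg
Xbp1: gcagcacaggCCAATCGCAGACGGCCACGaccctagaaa
Calr: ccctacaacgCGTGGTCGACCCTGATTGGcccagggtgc
The Hspa5 stretch is chr3:38452963-38453001, on the plus strand, and its element begins 43 bases before the start. The element begins 176 and 72 bases before the start in Hsp90b1 (chr7:23012441-23012479 and chr7:23012337-23012375, minus strand), 65 in Xbp1 (chr14:84604548-84604586, plus strand) and 232 in Calr (chr19:40213125-40213163, plus strand). The ER stress element II, the unfolded protein response element and the element of ATF4 and C/EBP were found in 0 of the 8 promoters and in 0.0508%, 0.595% and 3.98% of all promoters. Among the 5 members with a match, the differences between stressed and control rats ranged from 0.0098 (Xbp1) to 0.65 (Calr). A match is a run of letters and not a measured site.

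Other genes of the ER were taken from a list of 120 genes in 11 roles, without the 10 members. Of these, 110 had a probe under their name and 106 were tested, with the probe of highest mean signal standing for a gene. Over all arrays 4 genes were higher and 2 lower in stressed rats at an adjusted p of 0.1, which is 5.66% of the list beside 3.74% of all tested probes. In 21 of the 106 genes the groups did not overlap, beside 12.1% of all tested probes. The median difference was 0.01, with 55 genes above 0 and 51 below. Without control replicate 2, 27 genes were higher and 23 lower, 47.2% of the list beside 42.4% of all tested probes. Without any other array 0 or 1 passed: 1, higher, without stress replicate 4, control replicate 1 or control replicate 4, and 0 without stress replicates 1, 2 or 3 or control replicate 3.

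**Figure D3:**
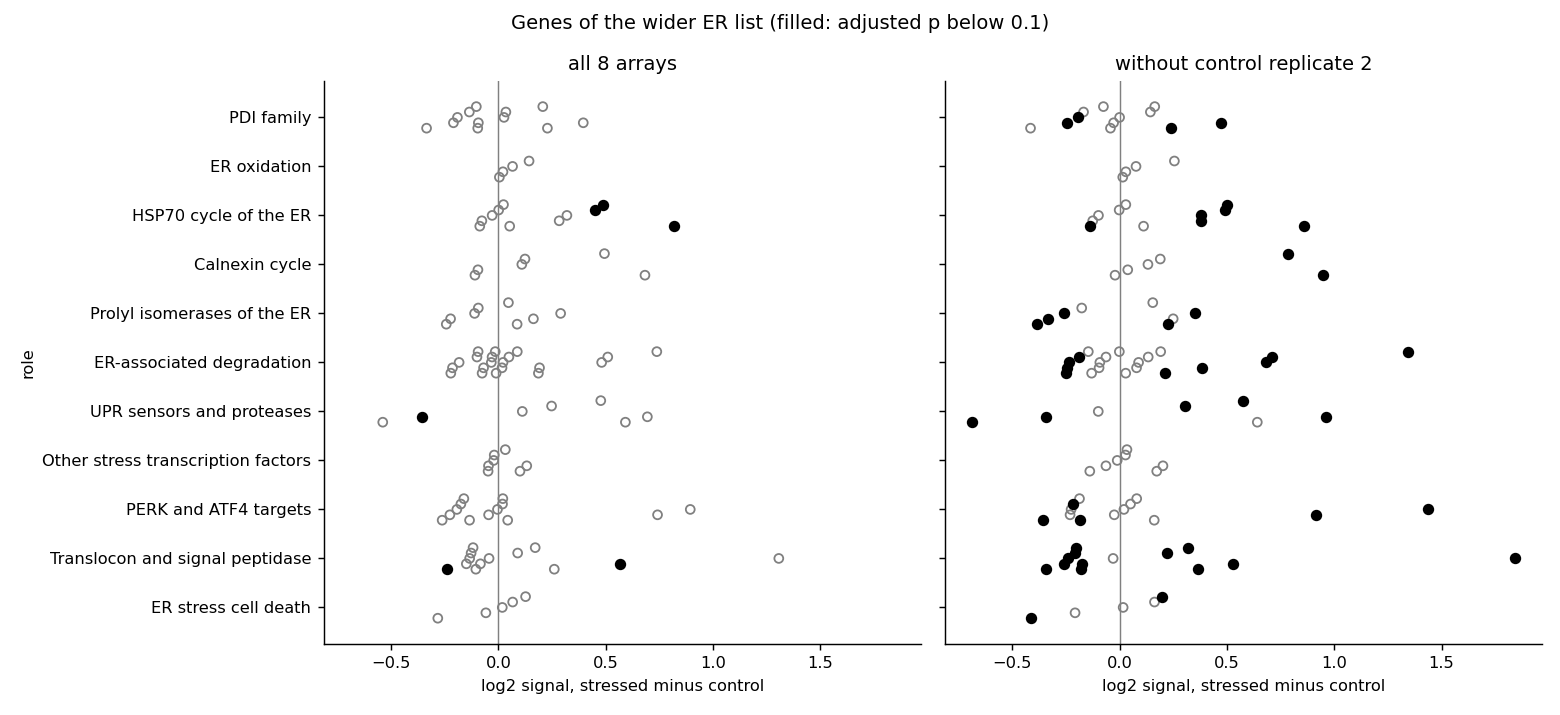
Difference between stressed and control rats (x axis, log2 signal, stressed minus control) for the 106 tested genes of the ER list by role (y axis), over all 8 arrays (left) and without control replicate 2 (right). Each point is a gene, filled where the adjusted p is below 0.1; 6 points are filled on the left and 50 on the right, on both sides of 0.

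The cycle of the ER HSP70 held 3 of the 4 genes that rose, among 11 tested, beside 2.77% of all tested probes called higher. Dnajb9 (ERdj4), a co-chaperone of Hspa5 that is a target of Xbp1, was at 0.04, 0.18, 0.05 and -0.0055 in stressed rats and at -0.43, -0.39, -0.43 and -0.45 in control rats. Control replicate 2 was within 0.05 of the mean of the other control rats. The rise of Dnajb9 was 0.49 with a standard error of 0.07 (limma, adjusted p = 0.0396), or 1.40-fold, higher in 4 of 4 stressed rats than in any control rat.
Manf, a secreted ER stress protein that binds Hspa5, was at 0.49, 0.59, 0.73 and 0.49 in stressed rats and at 0.11, 0.25, 0.05 and 0.10 in control rats. The groups were well apart, and the rise was 0.45 (standard error 0.08, adjusted p = 0.0634). Its relative Cdnf rose by 0.82 (standard error 0.16, adjusted p = 0.0697), from -2.69 ± 0.33 to -1.87 ± 0.10 (SD, n = 4). The other 8 genes of this role did not pass over all arrays. Without control replicate 2, 5 of the 11 were higher and 1 lower (54.5%, beside 42.4% of all tested probes).

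Of the translocon and signal peptidase, through which proteins enter the ER, 2 of 13 genes passed, in opposite directions (15.4%, beside 3.74% of all tested probes). In this role 5 genes were higher and 7 lower without control replicate 2 (92.3%, beside 42.4%). Sec62, a part of the translocon, was at 0.55, 0.66, 0.75 and 0.74 in stressed rats and at -0.02, -0.0087, 0.13 and 0.33 in control rats, a rise of 0.57 (standard error 0.10, adjusted p = 0.0581). Ssr4, a subunit of the translocon-associated complex, fell by 0.24 (standard error 0.06, adjusted p = 0.0979), from 2.85 ± 0.02 to 2.61 ± 0.03 (SD, n = 4), a small step in which no stressed rat reached a control rat. Among the 7 sensors and proteases, 1 passed over all arrays (14.3%, beside 3.74% of all tested probes). Without control replicate 2, 3 were higher and 2 lower (71.4%, beside 42.4%). The gene that passed over all arrays, Mbtps1, the site-1 protease that cleaves ATF6, fell by 0.36 (standard error 0.06, limma, adjusted p = 0.0581). It was at 0.44, 0.45, 0.43 and 0.48 in stressed rats and at 0.80, 0.85, 0.73 and 0.84 in control rats. Control replicate 2 was on the side of the other control rats in all 6 genes. They were chosen for passing with it counted as a control, so its place follows in part from that choice. Without control replicate 2 each of them passed in limma with an adjusted p between 0.0018 and 0.0118. The differences without it were 0.50 for Dnajb9, 0.49 for Manf, 0.86 for Cdnf, 0.53 for Sec62, -0.24 for Ssr4 and -0.34 for Mbtps1.

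**Figure D4:**
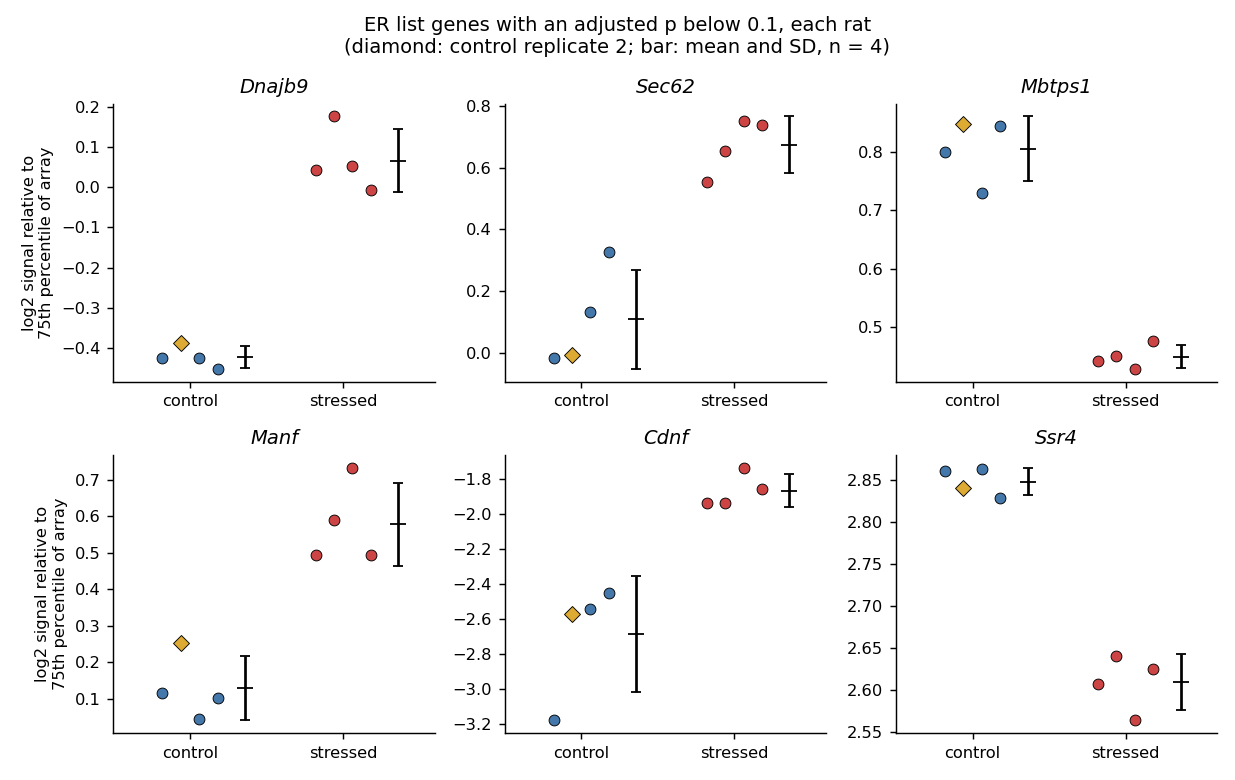
Signal of the 6 ER list genes with an adjusted p below 0.1 in each rat, as log2 over the 75th percentile of that array (y axis, its range set for each gene), in control and stressed rats (x axis). Points are rats, the diamond is control replicate 2 and bars are the mean and SD of 4 rats; Dnajb9, Sec62, Manf and Cdnf are higher and Mbtps1 and Ssr4 lower in every stressed rat than in any control rat.

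In the other 8 roles 0 genes passed in limma over all arrays. With control replicate 2 left out, 5 genes of ER-associated degradation were higher and 4 lower, 2 and 3 of the prolyl isomerases, 2 and 3 of the PERK and ATF4 targets, 2 and 2 of the PDI family, 2 and 0 of the calnexin cycle and 1 and 1 of the cell death genes, where 30.5% of all tested probes were higher and 11.9% lower. As shares of the genes tested these are 45%, 62.5%, 38.5%, 33.3%, 33.3% and 40%, beside 42.4% of all tested probes. In ER oxidation and the other stress transcription factors 0 passed there. An unadjusted p below 0.05 over all arrays, which 20.3% of all tested probes had, was also found for 5 of the 7 sensors and proteases, 5 of the 11 genes of the HSP70 cycle and 3 of the 13 of the translocon. The gene with the smallest p in each of the 8 roles was as follows. In the PDI family (12 tested, 5 of them at an unadjusted p below 0.05) it was Tmx2, a membrane-bound relative, at 0.40 (standard error 0.10, adjusted p = 0.104), and in the prolyl isomerases (8 tested, 1 below 0.05) Fkbp11 at -0.24 (adjusted p = 0.121). Among the targets of PERK and ATF4 (13 tested, 3 below 0.05) it was Cth, an enzyme of cysteine synthesis, at 0.74 (adjusted p = 0.124). In ER-associated degradation (20 tested, 4 below 0.05) it was Nploc4, a partner of the extracting ATPase Vcp, at -0.22 (adjusted p = 0.137). These 4 genes passed without control replicate 2, with Tmx2 at 0.47 (adjusted p = 0.0043), Fkbp11 at -0.26 (0.0162), Cth at 0.91 (0.0050) and Nploc4 at -0.25 (0.0110).
In the calnexin cycle (6 tested, 1 below 0.05) it was Ganab, a glucosidase that trims sugar chains before calnexin binds. Ganab was at -1.39, -1.19, -1.19 and -1.29 in stressed rats and at -2.35, -1.16, -2.28 and -2.01 in control rats, with control replicate 2 again above every stressed rat and the other 3 control rats below. Its difference was 0.68 (adjusted p = 0.197) and, without control replicate 2, 0.95 (adjusted p = 0.0012). Bak1, among 5 genes of cell death, was at -0.28 (adjusted p = 0.270) and, without control replicate 2, at -0.41 (adjusted p = 0.0038). In the other stress transcription factors (7 tested) Creb3l2 was at 0.10 (adjusted p = 0.578), and in ER oxidation (4 tested) Prdx4 was at 0.07 (adjusted p = 0.630), and in these 3 roles 0 genes had an unadjusted p below 0.05. Creb3l2 and Prdx4 without control replicate 2 were at 0.17 (adjusted p = 0.127) and 0.014 (adjusted p = 0.857).

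Markers of the cell types of the cord were read on the same arrays. Of the listed markers, 7 of 8 neuronal (not Rbfox3), 8 of 8 oligodendrocyte, 7 of 7 astrocyte and 7 of 7 microglial ones were tested. These tested markers were well above background on all 8 arrays. A probe had to be so on at least 4 arrays to be tested, so this follows in part from the filter. Over all arrays 1 of 8 oligodendrocyte markers was called higher, Mog at 0.90 (adjusted p = 0.0721), and 1 of 6 endothelial markers, Pecam1 at 0.40 (adjusted p = 0.0927), beside 2.77% of all tested probes. In the 7 other lists given here 0 passed. These were neurons, motor neurons (5 tested), astrocytes, microglia, meninges and fibroblasts (7 tested), red blood cells (5 tested) and plasma cells and lymphocytes (3 tested). A further list that was read is not reported. In each of the 7 lists 0 to 2 markers had an unadjusted p below 0.05. That threshold was met by 3 of 8 oligodendrocyte, 2 of 7 neuronal, 1 of 7 astrocyte and 1 of 6 endothelial markers, beside 20.3% of all tested probes. With control replicate 2 left out, 4 of the 8 oligodendrocyte and 3 of the 7 astrocyte markers were higher, beside 30.5% of all tested probes. Of the neuronal markers 2 were then higher and 1 lower, of the endothelial 3 and 1, of the motor neuron 1 and 1, and of the microglial 1 and 0, while in the other 3 of these lists 0 passed.
The summed oligodendrocyte signal, whose brightest probe was that of Mbp, was 351, 330, 331 and 256 in stressed rats and 277, 341, 240 and 235 in control rats, in units of the 75th percentile of the array. Control replicate 2 again lay with the stressed rats, as it did for Calr, Canx and Ganab. The summed astrocyte signal, led by Aldoc, was 329, 289, 296 and 277 in stressed and 272, 293, 236 and 237 in control rats. The part of these cell types in the ER results was not tested.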

How the data were processed

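Per the file headers, the intensity values deposited by the authors are Agilent Feature Extraction 10.7.3.1 processed signals, background-subtracted and detrended within each array, with no scaling between arrays. The log2 signal minus the 75th percentile of each array was averaged over the spots of a probe, leaving out control spots and outlier spots. Probes well above background on at least 4 of 8 arrays were tested (23678 of 30367) with limma 3.58.1 in R 4.3.3. The p values are two-sided and adjusted by Benjamini-Hochberg across the 23678 probes. The main threshold was 0.1 and the stricter one 0.05. Intervals are 95%. The number of arrays limits the precision. The 5′ minus 3′ difference is a centred median across 1887 transcripts whose outer probes were 300 bases or more from each other. The members and lists were chosen with earlier results of these data known. Genes named with their values were the members, list genes that passed and the smallest p of each role. The 5 symbols most correlated with Pdia4 and the cell type markers that passed were also named. The methods name dChip but no test. Alternatives were normexp (offset 50), quantile and median scaling, the authors' value table (linear, within 0.05 of the processed signal, with array medians from 243.1 to 275.8), other filters, array weights, a replicate block, the 5′ minus 3′ covariate, a variance trend, another rule for probes and leaving out each array. Some markers and sequences are not reported here.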

Additional observations from a re-analysis of the deposited data

Results flagged for a closer look

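In 4 of 48 groups of 4 rats, over the members and the named ER genes, 1 rat lay far from the others, measured as its gap to the nearest rat over the range of the group. By chance about 1 group in 20 does so, here 2.4. Stress replicate 2 was low for Canx (0.834) among stressed rats that otherwise lay close together. Control replicate 1 was low for Cdnf (0.840). Control replicate 2 was low for Bak1 (0.854) and for Prdx4 (0.865), and of these it lay with the stressed rats for Bak1. No cause was tested.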

How the results depend on the processing

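The Pdia4 difference lay between 1.11 (normexp) and 1.37 (array weights) in 19 fits, and between 1.14 and 1.36 with 1 array left out. As Pdia4 was chosen for its rise on these arrays, its sign in these fits gives no support to that rise. With 1 array left out, probes called ran from 0 to 10036, and ER list genes higher from 0 to 27 and lower from 0 to 23. Members other than Pdia4 called higher ran from 0 to 4. With the replicate block, 0 probes passed in limma (4292 at an unadjusted p below 0.05), and ER list genes higher (0), lower (0) and members higher (0) did likewise. Same-numbered rats correlated by between -0.09 and 0.31 and 1 of 4 correlated best with its own number, so the numbers do not pair the rats, though rats of 1 number share a slide column and the block is also a block on that column. Probes called were 215 with normexp, 3010 with no filter on dim probes, 11983 with array weights, 2393 with the 5′ minus 3′ covariate and 113 at an adjusted p of 0.05. Of called probes 74% were higher, but 58.1% after quantile and 47.2% after median scaling, which moved the median of all probes from 0.06 to -0.05. ER list genes called higher were 7 with quantile normalization, 11 with no filter, 7 with a filter on all 8 arrays, 31 with array weights and 1 at 0.05. Those called lower were 1 with normexp, 1 with quantile normalization, 5 with median scaling, 5 with no filter, 26 with array weights, 6 with the covariate, 5 with trend and robust estimation and 0 at 0.05. Members called higher, with Pdia4 counted, were 5 with array weights, 2 with the covariate and 2 with trend and robust estimation. Pdia4, which this contrast chose, is in each of these counts of members. The others were Pdia3, Calr, Canx and Atf4 with array weights, Hsp90b1 with the covariate and Pdia3 with trend and robust estimation. Signs turned for Pdia6 with normexp (0.0042) and the covariate (0.090), for Hspa5 with median scaling (-0.054) and for Xbp1 with median scaling (-0.11) and the covariate (-0.055). With 1 array left out Pdia6 ran from -0.075 to 0.0050 and Xbp1 from -0.011 to 0.043. The cause of these changes was not tested. Over the other 9 members, 143 of 162 values kept sign and side of the threshold, 10 came to pass and 9 changed sign.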
